A study of Mus musculus with 8 samples.

Results

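The expression of 8 genes whose transcripts are loaded into the mouse egg was followed in 2-cell embryos, 5 that encode chromatin proteins (Dppa3, Npm2, H1f8, Nasp and Ctcf) and 3 that encode regulators of RNA (Btg4, Lsm14b and Ago2). They were chosen by name as maternal chromatin and RNA decay factors, and each was represented by the probeset annotated to that symbol alone, of which each of the 8 had 1. They stand among 14995 genes with such a probeset, and all 8 were among the 11444 genes bright enough to be tested. Embryos came from C57BL/6 females that received 5 IU each of eCG and hCG and were mated with males of 3 kinds, namely males carrying a KDM1A transgene (KDM1A TG, 3 pools), their non-transgenic littermates (nonTG, 2 pools) and C57BL/6 males (3 pools). KDM1A is a histone H3 lysine 4 demethylase, and the study compared the RNA of embryos from these fathers. Oviducts were flushed 46 to 48 hours after hCG, 26 embryos were pooled on average, and amplified RNA from each pool was hybridised to 1 Affymetrix array. Only the father differed by label. The labels do not state the genotype of the embryos, the promoter that drives the transgene or the number of males behind a group. The spread between pools may therefore be technical. The limma tests set changes against this spread after drawing that of each gene toward one shared by all genes tested.

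The egg carries its own chromatin proteins and messenger RNAs into the embryo, which relies on them until its own genome is transcribed. Nucleoplasmin (Npm2) and the histone chaperone Nasp handle histones that are not yet in chromatin, and the oocyte linker histone H1f8 binds chromatin itself. Dppa3 shields the maternal genome from loss of DNA methylation, and the zinc finger protein Ctcf anchors chromatin loops. The stored messages are then cleared. Btg4 brings the CCR4-NOT deadenylase to them, Lsm14b belongs to a family of proteins that hold messages in untranslated RNP particles, and Ago2 is the Argonaute that cuts targets of small RNAs.

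The deposited values are log2 expression summaries, and the 8 factors were measured by probesets 17462686 (Dppa3), 17308442 (Npm2), 17462044 (H1f8), 17428659 (Nasp), 17504861 (Ctcf), 17517200 (Btg4), 17380666 (Lsm14b) and 17317837 (Ago2). Array medians lay between 2.73 and 2.86 over 22961 probesets. A pair of arrays had wider values than the rest, KDM1A TG replicate 3 with an interquartile range of 2.60 and KDM1A TG replicate 1 with one of 2.38. The remaining 6 had 1.87 to 2.09, so results are also given without this pair. Of 48 other maternal oocyte genes with a probeset 45 passed the filter on low values, and of 36 genes of 2-cell activation 31 did. Of the oviduct epithelial markers 23 of 23 also lay above the filter level of 2.07, as did 18 of 18 stromal and muscle markers. So did 10 of 10 cumulus and granulosa cell markers, 10 of 10 blood and immune markers and 3 of 8 sperm markers. Of all 14995 genes 11444 did, and a value above this level does not by itself show that a message was present. At least Cdh1 among the oviduct markers is also expressed by embryos. Kdm1a itself was not analysed here. In a pool, fewer embryo cells among other cells and less of a message per embryo cannot be told apart.

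Promoter windows from RefSeq (GRCm38.p6) were used here for 5 of the 8 genes, each of 300 bases that run from 250 bases before the annotated start to 50 bases after it. Those of 3 genes are shown because their genes stand for the patterns described below, namely Btg4 with the widest spread within groups, Nasp, which followed Btg4 and Dppa3 over the arrays, and Lsm14b with the narrowest spread. Capitals mark the pentamer CCAAT on either strand (ATTGG where it lies on the other strand), and each sequence is read 5′ to 3′ on the strand of its gene. The windows lie at chr9:51115751-51116050 on the plus strand (Btg4), chr4:116627902-116628201 on the minus strand (Nasp) and chr2:180024737-180025036 on the plus strand (Lsm14b).
Btg4: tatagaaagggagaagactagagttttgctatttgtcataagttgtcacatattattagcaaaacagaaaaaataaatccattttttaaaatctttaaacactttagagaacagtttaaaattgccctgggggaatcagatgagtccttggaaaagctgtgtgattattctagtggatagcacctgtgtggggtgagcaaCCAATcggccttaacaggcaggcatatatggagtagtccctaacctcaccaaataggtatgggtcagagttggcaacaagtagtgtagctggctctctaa
Nasp: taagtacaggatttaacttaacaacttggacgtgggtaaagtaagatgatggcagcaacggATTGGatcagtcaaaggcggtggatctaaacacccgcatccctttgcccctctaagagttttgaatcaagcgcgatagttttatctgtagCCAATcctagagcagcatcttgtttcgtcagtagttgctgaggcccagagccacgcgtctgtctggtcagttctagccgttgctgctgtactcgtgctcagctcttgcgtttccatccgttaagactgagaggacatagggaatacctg
Lsm14b: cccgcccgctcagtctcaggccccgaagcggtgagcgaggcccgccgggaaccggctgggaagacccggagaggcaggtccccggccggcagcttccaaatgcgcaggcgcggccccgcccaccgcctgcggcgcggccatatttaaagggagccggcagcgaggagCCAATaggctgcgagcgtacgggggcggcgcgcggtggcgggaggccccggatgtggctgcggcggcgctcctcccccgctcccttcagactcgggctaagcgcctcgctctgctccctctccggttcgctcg
The Btg4 window held 1 CpG and 39.0% GC, and 85.9% of the 32851 windows in the table held more CpG sites. That of Nasp held 13 CpG sites and 48.3% GC. The Lsm14b window, with 40 CpG sites and 74.3% GC, was richer in CpG than 96.1% of windows, and Ctcf had 47. H1f8 had 5, against a median of 7 over all windows. CCAAT was found once in Btg4 and once in Lsm14b, 2 times in Nasp and in H1f8, and not in Ctcf, and 37.4% of all windows held it on either strand. The GC box GGGCGG, again on either strand, occurred 3 times in Lsm14b, once in Ctcf and in none of the other 3 (35.7% of all windows held it). TATAAA on either strand was in none of the 5 (13.6% of all windows).

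Embryos of nonTG sires had the lowest mean of the 3 groups for every one of the 8 factors, but none passed the test. On the log2 scale Dppa3 stood at 7.83 and 9.10 in the nonTG pools, against 9.67, 8.86 and 10.18 in the C57BL/6 pools. One nonTG pool was thus below every C57BL/6 pool and the other lay within their range. The fitted log2 change was -1.11 (SE 0.39, 95% interval -1.89 to -0.33, limma adjusted p = 0.337), or 0.464 times the C57BL/6 level. It depended on single pools, being -0.47 without nonTG replicate 1 and -1.74 without nonTG replicate 2. Without C57BL/6 replicate 2 it was -1.46 and came nearest to the threshold (adjusted p = 0.0544).

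Npm2 stood at 4.36 and 4.31 in the nonTG pools, against 5.46, 4.90 and 5.78 in the C57BL/6 pools. The groups did not overlap, and the nonTG pools were close to each other. The log2 change was -1.05 (SE 0.36, 95% interval -1.77 to -0.33, limma adjusted p = 0.318). H1f8 had a mean of 3.21 ± 0.15 (SD, n = 2) in nonTG and 3.90 ± 0.15 (SD, n = 3) in C57BL/6 embryos, again without overlap (3.10 and 3.31, against 3.83, 4.08 and 3.80). Its log2 change was -0.70 (SE 0.36, limma adjusted p = 0.63). Both genes kept this separation after quantile normalization, cyclic loess and median centring. Npm2 and H1f8 were the 2 of 8 factors whose pools lay entirely lower, where 9.41% of all genes tested did.

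The remaining chromatin factors differed less between nonTG and C57BL/6 embryos. Nasp had a log2 change of -0.49 (95% interval -1.22 to 0.25), with 4.80 and 5.16 in nonTG against 5.55, 4.85 and 6.00 in C57BL/6 pools. Ctcf had one of -0.061 (95% interval -0.79 to 0.67), with 4.99 and 5.84 in nonTG and 5.58, 4.98 and 5.86 in C57BL/6 pools, so the 2 nonTG pools spanned nearly the whole C57BL/6 range. Among the RNA regulators Btg4 stood at 5.88 and 7.11 in nonTG, against 7.51, 6.08 and 7.52 in C57BL/6 pools. Its log2 change of -0.54 (95% interval -1.33 to 0.25) became 0.074 without nonTG replicate 1. Lsm14b and Ago2 had changes of -0.12 and -0.30.

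Counted together, 0 of the 8 factors passed for nonTG over C57BL/6 at an adjusted p under 0.05, where 0.131% of all genes did. At an unadjusted p under 0.05 there were 2 (Dppa3 and Npm2), both lower, where 3.62% of all genes were called lower. Limma drew the spread of Dppa3 down toward the shared one, which made its p smaller. Its pooled SD within groups was 0.71, against a median of 0.36 over all genes tested. All 8 had a change below 0, as did 46.8% of all genes. The median change of the factors was -0.51 and that of all genes 0.038. This was not particular to the factors, as other maternal oocyte genes had a median of -0.59, with 36 of 45 below 0. Genes of 2-cell activation had a median of -0.30, with 22 of 31 below 0.

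**Figure D1:**
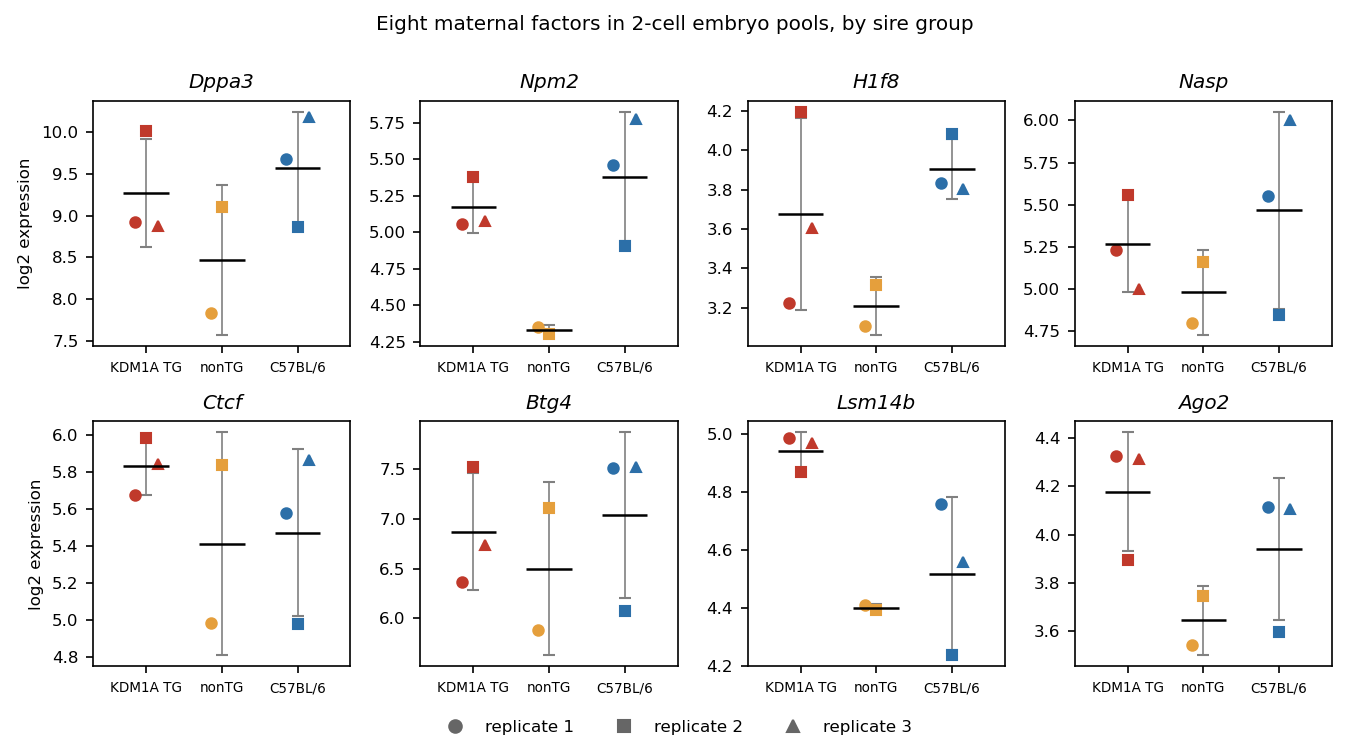
Log2 expression of each factor (y axes, scaled per gene) in pools of KDM1A TG, nonTG and C57BL/6 sires. Points are single arrays with the marker giving the replicate number, black lines group means and grey bars 1 SD. The nonTG mean is the lowest in each panel, and the groups overlap in most panels.

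Between embryos of KDM1A TG and C57BL/6 sires the changes had both signs, and the pools of 7 of the 8 factors overlapped. Dppa3 stood at 8.93, 10.01 and 8.87 in the KDM1A TG pools, against 9.67, 8.86 and 10.18 in the C57BL/6 pools. Replicate 2 was the high KDM1A TG pool and replicate 2 the low C57BL/6 pool. The log2 change was -0.30 (SE 0.35, 95% interval -0.9997 to 0.3961, limma adjusted p = 0.672). Npm2 stood at 5.06, 5.38 and 5.08 and H1f8 at 3.22, 4.19 and 3.61 in the KDM1A TG pools, both within or across the C57BL/6 range given above. Nasp stood at 5.23, 5.56 and 5.00 there and Btg4 at 6.36, 7.52 and 6.73, again highest in replicate 2. The changes of Npm2, H1f8, Nasp and Btg4 were -0.21, -0.23, -0.20 and -0.17, and no pool range was separate from that of C57BL/6.

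The other 3 factors leaned the other way. Lsm14b stood at 4.99, 4.87 and 4.97 in the KDM1A TG pools and at 4.76, 4.24 and 4.56 in the C57BL/6 pools, without overlap. Its log2 change was 0.42 (SE 0.32, 95% interval -0.21 to 1.06, limma adjusted p = 0.521). It was the 1 factor of 8 with pools entirely higher, where 14.5% of all genes were. The separation was lost after quantile normalization (change 0.15) and cyclic loess (0.11). Ctcf stood at 5.67, 5.98 and 5.84 in KDM1A TG pools, with a mean of 5.83 ± 0.15 (SD, n = 3) against 5.47 ± 0.45 (SD, n = 3) in C57BL/6 pools and a change of 0.36. Ago2 had one of 0.24, with 4.33, 3.89 and 4.31 in KDM1A TG against 4.11, 3.60 and 4.11 in C57BL/6 pools.

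No factor passed for KDM1A TG over C57BL/6 (0 of 8, where 0.725% of all genes did), and 0 had an unadjusted p under 0.05, where 14.2% of all genes had. Changes below 0 numbered 5 (all genes 35.1%), and the median of the factors was -0.18, against 0.18 for all genes. With only replicate 2 left for KDM1A TG, that median was 0.32, and the changes of Dppa3 and Btg4 were 0.44 and 0.48. In the same fit Lsm14b had a change of 0.35 and Ago2 one of -0.047. Without C57BL/6 replicate 3 the changes of Dppa3 and Btg4 were 0.0037 and 0.077. The sign of these 2 changes thus followed which pools of either group were included.

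Every factor had a higher mean in KDM1A TG than in nonTG embryos, and none passed. This comparison sets transgenic sires against their littermates, with 3 and 2 pools. Npm2 differed most (log2 change 0.84, SE 0.36, 95% interval 0.12 to 1.56, limma adjusted p = 0.77), with 5.06, 5.38 and 5.08 in KDM1A TG pools against 4.36 and 4.31 in nonTG pools. For Dppa3 the change was 0.81 (95% interval 0.03 to 1.59, limma adjusted p = 0.775). It dropped to 0.17 without nonTG replicate 1. Lsm14b, with 4.99, 4.87 and 4.97 against 4.41 and 4.39, had a change of 0.54, and Ago2, with 4.33, 3.89 and 4.31 against 3.54 and 3.75, one of 0.53 (limma adjusted p = 0.847 for both).

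Npm2, Lsm14b and Ago2 were the 3 of 8 factors with KDM1A TG pools entirely above nonTG pools, where 16% of all genes were. Ago2 overlapped after quantile normalization and cyclic loess, and the other 2 did not. H1f8, Ctcf, Btg4 and Nasp had changes of 0.46, 0.42, 0.37 and 0.28. The count that passed was 0 of 8 (all genes 0.0437%), and 2 had an unadjusted p under 0.05, where 4.97% of all genes were called higher at that level. These were Npm2 and Dppa3, and limma again drew the spread of Dppa3 down. The median change was 0.50 for the factors and 0.16 for all genes, and 65.4% of all genes had a change above 0. With only replicate 2 left for KDM1A TG the median of the factors was 0.78, and the changes of Lsm14b and Ago2 were 0.47 and 0.25. The comparisons share pools, so their directions are not independent of each other.

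**Figure D2:**
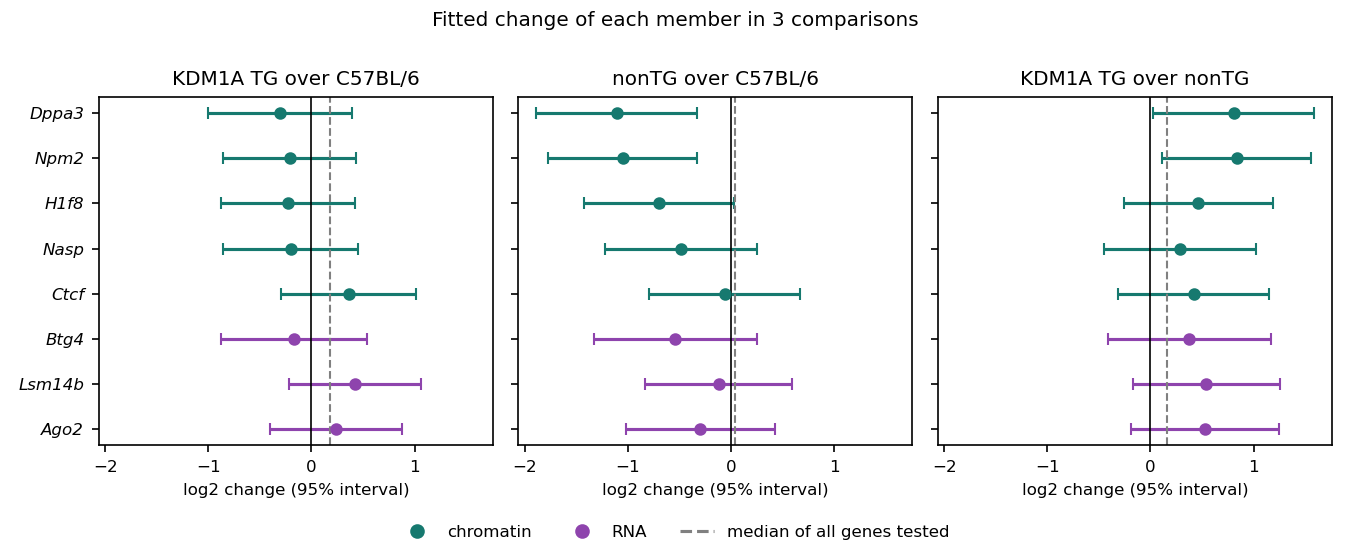
Fitted log2 change (x axes) of each factor with its 95% interval in the 3 comparisons, for KDM1A TG over C57BL/6, nonTG over C57BL/6 and KDM1A TG over nonTG. Green marks chromatin proteins, purple RNA regulators and the dashed line the median of all 11444 genes. The intervals of Dppa3 and Npm2 lie below 0 in the middle panel before adjustment over all genes, and those in the left panel all include 0.

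The factors differed widely in how much they varied between pools of 1 sire group. The pooled SD within groups was 0.75 for Btg4 and 0.71 for Dppa3, higher than for 97.5% and 96.5% of the genes tested, whose median was 0.36. It was 0.17 for Lsm14b, at the 2nd percentile, and 0.25 for Ago2, at percentile 12.9. Npm2 and H1f8, with 0.30 and 0.33, were below the median of all genes, and Ctcf and Nasp, with 0.40 and 0.42, above it. The limma tests draw these spreads toward a shared one, so the SE for nonTG over C57BL/6 was 0.39 for Dppa3 and 0.36 for Lsm14b. The limma interval of Dppa3 is therefore narrower, and that of Lsm14b wider, than the gene's own spread alone would give. Over the 8 factors nonTG replicate 1 had the lowest mean (4.86) and was the lowest array for 5 of them. C57BL/6 replicate 2 followed (5.20), and the highest means were those of KDM1A TG replicate 2 (5.93) and C57BL/6 replicate 3 (5.98).

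Dppa3, Nasp and Btg4 went up and down together over the 8 arrays. Dppa3 and Btg4 correlated at Pearson's r = 0.906 and Spearman's rho = 0.976 (exact permutation p = 0.000322 and 0.000397, adjusted over 28 pairs 0.00902 and 0.00556). With each group centred on its mean r was 0.942, and without the 2 arrays farthest from the median of Dppa3 it was 0.862. Dppa3 and Nasp had r = 0.908 and rho = 0.976 (exact permutation p adjusted 0.0354 and 0.00556), with 0.889 within groups and 0.903 without the 2 farthest arrays. Nasp and Btg4 had r = 0.861 and rho = 0.929 (exact permutation p adjusted 0.0595 and 0.0208), with 0.851 within groups. Without the 2 arrays farthest from the median of Nasp r was 0.852. Of the other genes tested 1.25% correlated more closely with Dppa3 than Btg4 did, and 1.21% more closely than Nasp did. Those with r above 0.9 to Dppa3 numbered 161 (1.41%). In the windows printed above Btg4 and Nasp differ in CpG content, with 1 site and 13.

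Of the 28 pairs 2 passed by r and 3 by rho, and 27 had r above 0. For comparison, the median r of a factor with the other genes tested lay between -0.119 (Nasp) and 0.213 (Lsm14b). The share of all gene pairs that would pass was not computed. Lsm14b and Ago2 formed a second pair, with r = 0.858 and rho = 0.857 (exact permutation p adjusted 0.0612 and 0.0749), and 0.56% of genes followed Lsm14b more closely. Lsm14b had r of 0.288 with Dppa3 and 0.324 with Btg4, and 0.553 and 0.599 after quantile normalization, so its distance from them depended on the scaling. H1f8 had r of 0.009 with Lsm14b and -0.016 with Ago2. All points of a pair come from the same arrays, so these relations include anything that moves a whole array.

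Btg4 and Dppa3 also followed the mean of 45 other maternal oocyte genes, at r = 0.961 and 0.945 (exact permutation p adjusted over 56 relations 0.0153 and 0.0282). Spearman's coefficient was 0.881 and 0.810 (exact permutation p adjusted 0.171 for both). With groups centred r was 0.987 for Btg4 and 0.922 for Dppa3. Without the 2 arrays farthest from the median of the maternal mean it was 0.934 and 0.885. With the mean of 31 genes of 2-cell activation they had r = 0.959 and 0.894 (exact permutation p adjusted 0.0139 and 0.0347). These 4 relations of the 56 passed by r, and 0 passed by rho. Lsm14b and Ago2 had r of 0.351 and 0.408 with the maternal mean, and 0.608 and 0.595 after quantile normalization.

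The oviduct epithelial markers had correlations of the opposite sign with every factor but Lsm14b and Ago2, and none passed after adjustment. Their mean was 6.26, 5.55 and 6.28 in the KDM1A TG pools and 6.12 and 5.81 in the nonTG pools, against 5.49, 5.84 and 5.16 in the C57BL/6 pools. For KDM1A TG over C57BL/6, 22 of the 23 markers had a change above 0, and for nonTG over C57BL/6 20 of 23. Of all genes 35.1% and 46.8% had a change below 0 in these comparisons, in that order. Dppa3 had r = -0.809 and rho = -0.786 with the oviduct mean (exact permutation p adjusted 0.091 and 0.171), and r = -0.942 with groups centred. Without the 2 arrays farthest from the median of the oviduct mean r was -0.777. Nasp had r = -0.822, Btg4 -0.754, Npm2 -0.622, H1f8 -0.596, Ctcf -0.295, Lsm14b 0.227 and Ago2 0.071. After quantile normalization the sign of Lsm14b and Ago2 turned, to -0.402 and -0.469, with Dppa3 at -0.958 and Btg4 at -0.909. Nasp, Npm2, H1f8 and Ctcf were then at -0.937, -0.9, -0.756 and -0.726.

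The oviduct mean comes from the same arrays and itself differed by sire group, at 6.03 in KDM1A TG, 5.97 in nonTG and 5.495 in C57BL/6 embryos. An adjustment for it can therefore also take up part of a difference between sire groups. With the oviduct mean as a covariate the median change of the factors was -0.14 for nonTG over C57BL/6, against -0.51 without it. For Dppa3 it was -0.21 and for Npm2 -0.72. For KDM1A TG over C57BL/6 the median turned to 0.42, and 0 of 8 factors passed in any comparison. The stromal and muscle markers ranged from 4.31 to 5.95 in KDM1A TG and from 3.91 to 5.29 in nonTG pools, against 3.67 to 4.41 in C57BL/6 pools, with 18 and 14 of 18 changes above 0 for KDM1A TG and nonTG over C57BL/6, and r with Dppa3 was -0.655 (rho -0.786, exact permutation p adjusted 0.236 and 0.171). The blood and immune markers ranged from 3.54 to 3.78 in KDM1A TG and from 2.92 to 3.87 in nonTG pools, against 3.32 to 4.26 in C57BL/6 pools. The cumulus and granulosa cell markers ranged from 2.35 to 3.05 in KDM1A TG and from 2.54 to 2.56 in nonTG pools, against 2.50 to 3.34 in C57BL/6 pools. Of the 18 stromal markers 1 passed and was higher for KDM1A TG over C57BL/6 (Acta2, a smooth muscle actin), and of 10 blood markers 7 had a change above 0 and 1 passed and was lower (S100a9, a neutrophil protein). S100a9 overlapped between these groups, at 2.06, 3.14 and 1.96 in the KDM1A TG pools against 6.41, 2.82 and 3.697 in the C57BL/6 pools. Of 10 cumulus and granulosa cell markers 7 had a change below 0 in each comparison and 0 passed. Over all genes 35.1% had a change below 0 for KDM1A TG over C57BL/6 and 46.8% for nonTG over C57BL/6. For KDM1A TG over nonTG 65.4% had one above 0. The blood markers thus lay near the share of all genes for KDM1A TG over C57BL/6, with 3 of 10 below 0. The part of the oviduct, stromal, blood and cumulus cell markers in these results was not tested.

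**Figure D3:**
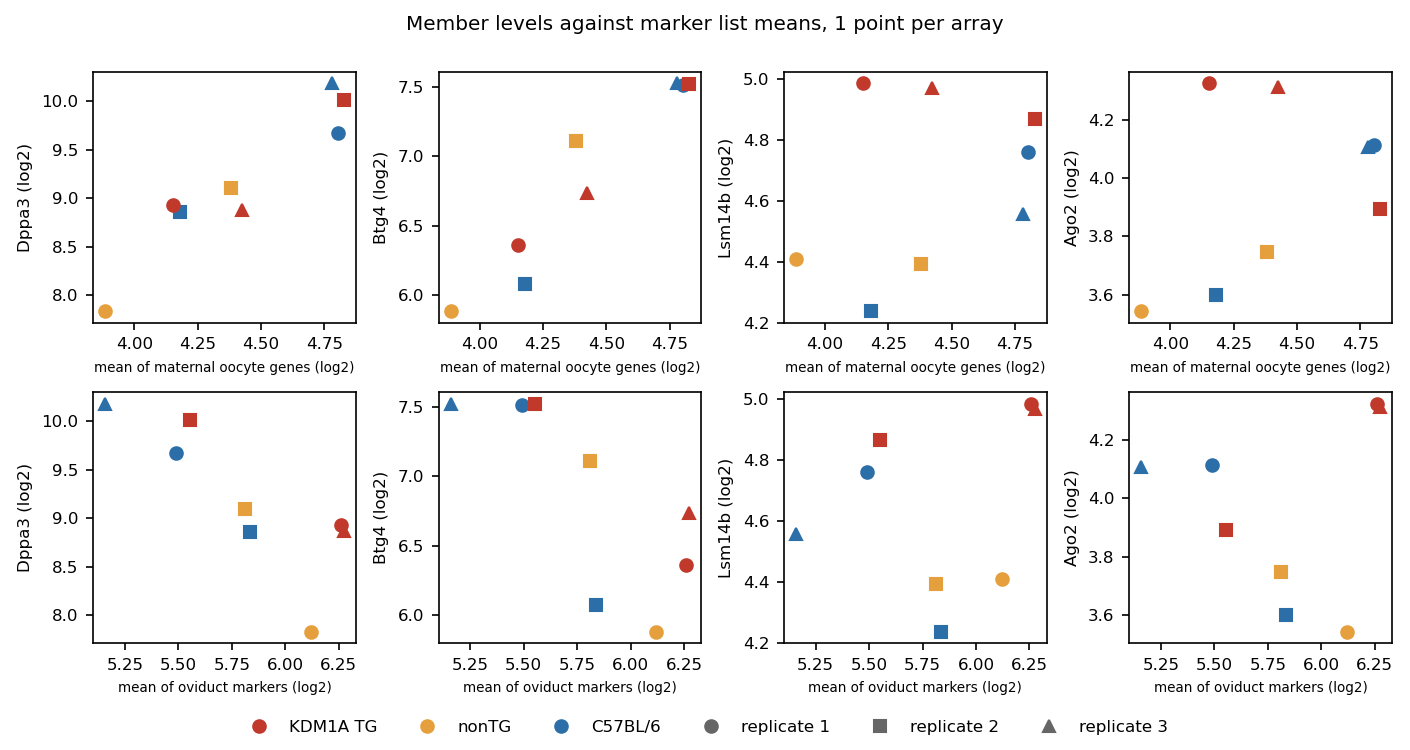
Log2 expression of Dppa3, Btg4, Lsm14b and Ago2 (y axes) against the mean log2 level of 45 maternal oocyte genes (upper row) and of 23 oviduct epithelial markers (lower row), 1 point per array. Colours give the sire group and shapes the replicate number. Dppa3 and Btg4 climb with the maternal mean and decline with the oviduct mean, and Lsm14b and Ago2 are more scattered, with KDM1A TG replicates 1 and 3 at the top on the deposited scale. After quantile normalization the highest value is that of C57BL/6 replicate 1 for both genes (4.92 for Lsm14b and 4.22 for Ago2).

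Several genes had profiles close to single factors over the 8 arrays, by Pearson's r as a description of the closest gene found. The closest to Btg4 was Tcl1b1 (r = 0.994), to Dppa3 Ube2c (0.981), to Npm2 Pramel6 (0.969), to Nasp Brix1 (0.984) and to H1f8 Zfp775 (0.972). The closest to Ctcf was Mpc1 (0.981), to Ago2 Cntln (0.981) and to Lsm14b Rtf2 (0.952). After quantile normalization these r values were between 0.931 (Lsm14b and Rtf2) and 0.996 (Btg4 and Tcl1b1). Genes with r above 0.9 numbered 163 for Btg4 and 161 for Dppa3, and 11 for H1f8. The mean of the 8 factors was followed most closely by Rsl1d1 (0.990), Tnfrsf12a (0.983), Gda (0.980), Gmnn (0.978) and Incenp (0.977).

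The partners of the chromatin factors, among them other histone chaperones, linker histones and chromatin modifiers, were also examined, and 0 of 28 tested passed in any of the 3 comparisons. Their median change was 0.34 for KDM1A TG over C57BL/6 (all genes 0.18) and -0.072 for nonTG over C57BL/6 (all genes 0.038). The linker histone gene H1f5 had the smallest p of the list for KDM1A TG over nonTG, with a log2 change of 1.55 (SE 0.42, limma adjusted p = 0.245). It stood at 4.09, 6.10 and 5.36 in KDM1A TG pools against 4.09 and 3.18 in nonTG pools. Rbbp4, a histone-binding subunit of several chromatin complexes, stood at 6.39, 6.18 and 6.60 in KDM1A TG pools against 5.02, 5.75 and 5.72 in C57BL/6 pools (change 0.89, limma adjusted p = 0.195). In nonTG pools it was 6.10 and 6.43. Kmt2d, a histone H3 lysine 4 methyltransferase, had a change of -0.84 for nonTG over C57BL/6 (limma adjusted p = 0.498). Of 15 cohesin and Ctcf partners 0 passed, with Smc1a, a cohesin subunit, at a change of 0.80 for KDM1A TG over C57BL/6 (limma adjusted p = 0.253).

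In the deadenylation list, with subunits of CCR4-NOT and its adaptors, 1 of 21 genes passed for KDM1A TG over C57BL/6, where 0.655% of all genes passed and were higher, and 0 of 21 in the other comparisons. Btg2, which like Btg4 belongs to the BTG/TOB family and is also a p53 target, rose by 1.54 on the log2 scale (SE 0.33, limma adjusted p = 0.00834). Its values were 4.93, 4.94 and 5.78 in the KDM1A TG pools, against 3.36, 4.22 and 3.46 in the C57BL/6 pools. In nonTG pools Btg2 was at 4.99 and 4.81, a change from C57BL/6 of 1.22 that did not pass (limma adjusted p = 0.183). After quantile normalization (1.31) and cyclic loess (1.24) the change of Btg2 for KDM1A TG over C57BL/6 did not pass (limma adjusted p = 0.181 and 0.202), nor with the oviduct mean as a covariate (1.11, 0.422) or with only replicate 2 left for KDM1A TG (1.26, 0.998). It also did not pass without KDM1A TG replicate 3 (1.26, limma adjusted p = 0.341), C57BL/6 replicate 1 (1.38, 0.0964) or C57BL/6 replicate 3 (1.43, 0.0714). Zfp36, an AU-rich element binding protein that recruits the deadenylase, had a change of 0.9992 for KDM1A TG over C57BL/6 (limma adjusted p = 0.148).

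Of 21 genes for decapping, uridylation and decay from the 5′ end 0 passed in any comparison. Their median change was 0.37 for KDM1A TG over C57BL/6 and 0.22 for nonTG over C57BL/6. Tut7, which adds uridines to short poly(A) tails, had a change of 0.89 for KDM1A TG over C57BL/6 (limma adjusted p = 0.195). Lsm3, a subunit shared by the Lsm rings of decay and splicing, had one of 1.16 for nonTG over C57BL/6 (limma adjusted p = 0.289). For Lsm3 the C57BL/6 pools were spread from 4.82 to 7.06, while the nonTG pools were both at 7.14.

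Of 13 genes of RNP granules and translational repression in the oocyte, the setting of Lsm14b, 0 passed, and their median change was -0.33 for nonTG over C57BL/6 (all genes 0.038). In that comparison Zar1, a maternal RNA-binding protein, had a change of -0.71 and the Y-box protein gene Ybx2 one of -0.66 (limma adjusted p = 0.631 and 0.658). For KDM1A TG over nonTG 13 of 13 had a change above 0, as had 65.4% of all genes. Of 11 other genes of the Argonaute and small RNA machinery 0 passed. Xpo5, the exporter of microRNA precursors, had a change of 1.0007 for KDM1A TG over C57BL/6 (SE 0.32, limma adjusted p = 0.122), with 3.69, 3.60 and 3.88 in KDM1A TG pools against 2.74, 2.75 and 2.67 in C57BL/6 pools. The nonTG pools were both at 3.36, between the other groups.

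**Figure D4:**
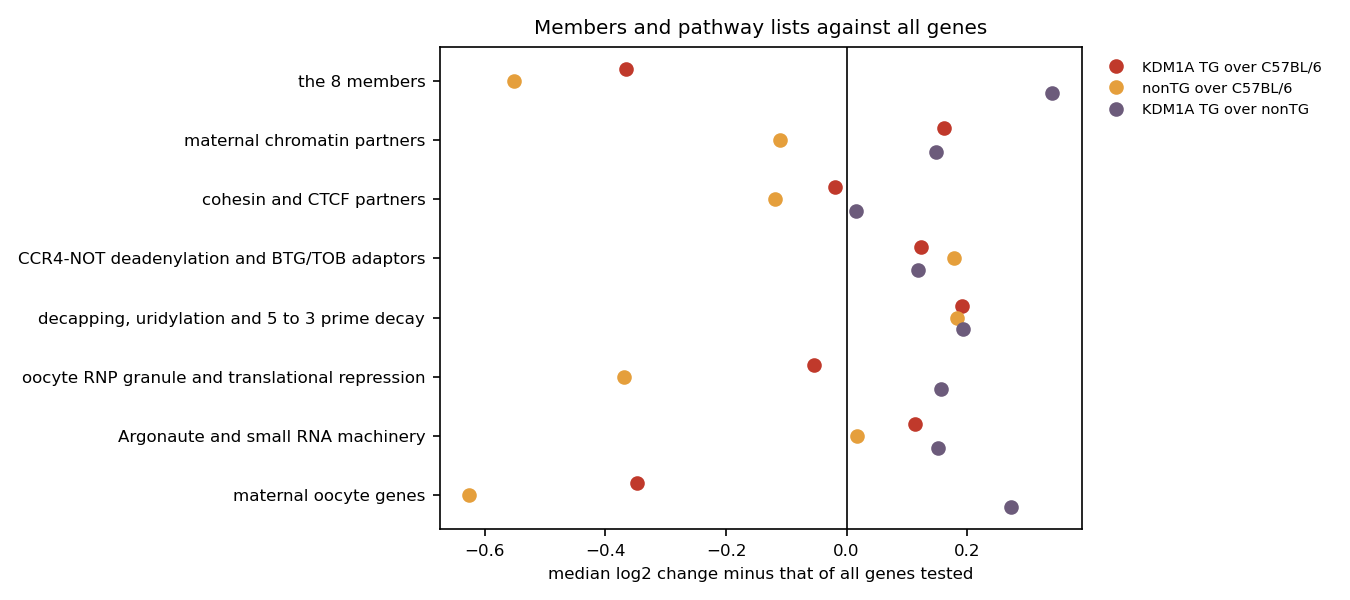
Median log2 change of the 8 factors, of their pathway lists and of other maternal oocyte genes (rows), minus the median of all genes tested (x axis), in the 3 comparisons given by colour. The factors and the maternal oocyte genes lie at -0.55 and -0.63 for nonTG over C57BL/6, and the decapping and deadenylation lists at 0.18 each.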

How the data were processed

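Amplified RNA of 8 embryo pools was measured on 8 arrays, grouped by the genotype label of the sire. Per the submitters' processing notes, the tools named are limma, oligo, RMA and R 3.1.0, with no roles, and the sources used here do not describe background correction, annotation or filters. The deposited table holds log2 expression per probeset, and scanner files were not used here, so signal over background was not assessed.

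Names came from the platform annotation (15745 of 22961 probesets with 1 symbol, 1320 with several, 5896 with none here), and 15621 of these named probesets matched a RefSeq gene (GRCm38.p6) by identifier, which gave the current symbol. The brightest probeset stood for a gene, and 11444 genes whose mean exceeded log2 2.07 (percentile 30 over probesets) were tested. A model of group means was fitted to the deposited log2 values with limma 3.58.1 (lmFit, eBayes; R 4.3.3), using all arrays at once, with two-sided tests and Benjamini-Hochberg adjustment over these genes at 0.05. Intervals are 95%. The fit was tested on simulated data with 200 changed genes. Correlations over arrays used exact two-sided permutation tests.

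The factors, lists, tests and alternatives were chosen with earlier results of these data known. Named genes are the 8 factors, the closest genes by r, and genes picked, after their values were seen, among the up to 4 of each list with the smallest p per comparison. Lists are given by counts and medians. The number of arrays limits the precision. Alternatives covered scaling, filter, array weights, the variance model, the arrays fitted, a replicate block, probeset choice, a covariate and left-out arrays.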

Additional observations from a re-analysis of the deposited data

Results flagged for a closer look

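Lsm14b was the 1 factor whose KDM1A TG pools all lay above the C57BL/6 mean of 4.52 while both nonTG pools lay below it. The difference between the 2 effects, which is the log2 change for KDM1A TG over nonTG, was 0.54 (SE 0.36, 95% interval -0.17 to 1.25) and did not pass (limma adjusted p = 0.847). Over the alternatives it ranged from 0.28 to 0.58, with adjusted p from 0.583 to 0.999.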

How the results depend on the processing

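No factor passed in any of the 3 comparisons under any of the 21 alternatives, and the smallest adjusted p was 0.0544, for Dppa3 in nonTG over C57BL/6 without C57BL/6 replicate 2. Of 504 recomputed changes of single factors, 479 kept their direction and 25 turned. Many of these could not turn. The filters, the variance models, the fit of only the groups compared and the mean of probesets leave each change as it was. Leaving out an array of a group not compared does so too. The 479 are therefore no measure of stability. With oviduct markers as a covariate the median change of the factors moved to 0.42 for KDM1A TG over C57BL/6 and to -0.14 for nonTG over C57BL/6. Under this covariate the changes for KDM1A TG over C57BL/6 turned to 0.71 (Dppa3), 0.82 (Btg4), 0.37 (Nasp), 0.17 (Npm2) and 0.032 (H1f8), and those for nonTG over C57BL/6 to 0.33 (Btg4), 0.35 (Ctcf) and 0.017 (Nasp). Without KDM1A TG replicates 1 and 3 together, the median for KDM1A TG over C57BL/6 moved to 0.32 and the changes turned to 0.44 (Dppa3), 0.48 (Btg4), 0.29 (H1f8), 0.094 (Nasp) and -0.047 (Ago2). That fit has fewer arrays, and its lone KDM1A TG array is assumed to vary like the other groups. The cause of the turns was not tested. Leaving out 1 array at a time gave medians of -0.33 to 0.072 for KDM1A TG over C57BL/6, -0.73 to -0.25 for nonTG over C57BL/6 and 0.27 to 0.72 for KDM1A TG over nonTG. For KDM1A TG over C57BL/6 these changes ranged from -0.65 to 0.089 for Btg4, from -0.67 to 0.0037 for Dppa3 and from -0.51 to 0.066 for Nasp. For nonTG over C57BL/6 they ranged from -1.16 to 0.074 for Btg4, from -0.49 to 0.36 for Ctcf and from -0.26 to 0.0032 for Lsm14b, and for KDM1A TG over nonTG from -0.24 to 0.99 for Btg4 and from -0.0048 to 0.85 for Ctcf. Scaling moved the median of all genes for KDM1A TG over C57BL/6 from 0.18 to values between 0.069 and 0.25. The count of all genes that passed was 83, 15 and 5 in the 3 comparisons, and ranged over the alternatives from 1 (without KDM1A TG replicates 1 and 3) to 1694 (array weights) for KDM1A TG over C57BL/6, from 1 (quantile normalization and cyclic loess) to 80 (without C57BL/6 replicate 2) for nonTG over C57BL/6, and from 2 to 17 for KDM1A TG over nonTG. In their deviations from group means, same-numbered pools correlated at -0.378 to 0.179 and differently numbered pools at -0.257 to 0.257. Within groups of 3 or 2 pools such deviations are tied to each other. These values therefore cannot decide whether the numbers pair the pools. With the replicate block the medians were -0.18, -0.44 and 0.48, the change of Ctcf for nonTG over C57BL/6 turned to 0.038, 0 factors passed, and 76, 23 and 4 genes did.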
